A study of Homo sapiens with 12 samples.

Results

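Integrins are the receptors by which cells hold on to the extracellular matrix, and laminins are the large proteins of the basement membrane to which several of them bind. An integrin is a pair of an alpha and a beta subunit, and the pair sets the ligand: α6β4, α6β1 and α3β1 bind laminins, α2β1 binds collagens and laminins, and α5β1 and the αV pairs bind fibronectin, vitronectin and other proteins with an RGD motif. A laminin is a cross of an alpha, a beta and a gamma chain, and is named by the numbers of its chains. In epithelial cells laminins with the LAMA3 chain and integrin α6β4 anchor hemidesmosomes, and in breast cancer cells integrin α6β4 is known for its part in migration and invasion. All genes whose symbols name an integrin alpha subunit (a number or V), an integrin beta subunit (1 to 8) or a laminin chain were taken, by symbol alone, and 30 of the 24556 symbols in the table are reported: 11 alpha subunits, 8 beta subunits and 11 laminin chains. Alpha subunits with other letters, such as ITGAE, and the merged locus ITGA1-PELO were not taken by this rule.

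RNA was sequenced from LM2 cells, a lung-metastatic derivative of the breast cancer line MDA-MB-231, in 4 groups of 3 libraries. The groups were cells transduced with an EZH2 short hairpin RNA (shRNA), cells transfected with a ZRANB1 small interfering RNA (siRNA), cells transfected with a scramble siRNA, and cells transduced with a scramble shRNA, all grown in the same medium with serum. EZH2 is the histone H3 lysine 27 methyltransferase of Polycomb repressive complex 2, and ZRANB1 is a deubiquitinase; the comparisons asked which transcripts change when either is depleted. Levels were deposited as FPKM, fragments scaled by transcript length and by library size, so levels of different genes are set side by side per length.

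Each row of the table held the values of a group sorted as text strings, so a value could not be traced to its library; below they are given from low to high. Sequencing depth was unknown. No label named separate cultures, and p-values here measure the spread between samples, which may be technical. EZH2 averaged 16.5 ± 0.681 FPKM with the EZH2 shRNA and 35.4 ± 1.07 FPKM with the scramble shRNA (SD, n = 3 each). ZRANB1 averaged 10.0 ± 1.31 FPKM in libraries that carry the ZRANB1 siRNA label and 11.4 ± 0.795 FPKM in scramble siRNA libraries, a difference not called by limma (adjusted p = 0.349), so each direction given for those libraries is one of libraries in which lower ZRANB1 was not shown. EZH2 was also lower there, with 28.3, 30.4 and 32.4 FPKM against 46.5, 48.7 and 50.6 FPKM. That control itself stood above the scramble shRNA in EZH2 (log2 difference 0.45, adjusted p = 2.31e-04 by limma). All 8 listed markers of mesenchymal MDA-MB-231 cells were above 1 FPKM in each group. Of 8 listed epithelial and luminal markers, CDH1, ESR1 and PGR were below 0.05 FPKM in each group, but CLDN7 (2.27 to 11.8 FPKM), EPCAM (3.53 to 8.23), GATA3 (3.70 to 6.74) and ERBB3 (1.13 to 2.22) were above 1 FPKM in each, and CLDN3 was so with the scramble siRNA.

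Promoter sequences are shown for 3 members on which the results below turn: ITGA5, the alpha subunit with the largest change in the ZRANB1 siRNA libraries, and LAMA3 and LAMB3, laminin chains that assemble with each other and whose differences ran in opposite directions. They come from RefSeq (build GRCh38.p14), which differs from the build hg19 of the submitters' processing notes, and run from 250 bases before to 50 after a gene start. Of the 17 members tested below, 13 matched an entry; ITGB4, ITGA3, ITGB2 and ITGB3 are named only. Capitals mark TGANTCA, the motif of AP-1 factors, or GGAATG, the motif of TEAD factors, searched on both strands; no 2 matches shown overlap.
ITGA5 (chr12:54419217-54419516, minus strand): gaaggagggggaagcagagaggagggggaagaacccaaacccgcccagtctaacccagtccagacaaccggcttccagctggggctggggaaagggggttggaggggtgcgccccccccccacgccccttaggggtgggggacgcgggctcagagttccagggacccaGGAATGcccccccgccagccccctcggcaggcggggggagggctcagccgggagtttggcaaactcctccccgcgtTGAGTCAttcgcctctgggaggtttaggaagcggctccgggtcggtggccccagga
LAMA3 (chr18:23872770-23873069, plus strand): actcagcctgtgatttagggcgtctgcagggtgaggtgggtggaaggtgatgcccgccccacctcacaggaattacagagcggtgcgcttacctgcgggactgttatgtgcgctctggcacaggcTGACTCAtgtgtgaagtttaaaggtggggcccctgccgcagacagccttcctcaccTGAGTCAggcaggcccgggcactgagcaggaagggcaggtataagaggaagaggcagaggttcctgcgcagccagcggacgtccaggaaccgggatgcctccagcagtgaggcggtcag
LAMB3 (chr1:209651325-209651624, minus strand): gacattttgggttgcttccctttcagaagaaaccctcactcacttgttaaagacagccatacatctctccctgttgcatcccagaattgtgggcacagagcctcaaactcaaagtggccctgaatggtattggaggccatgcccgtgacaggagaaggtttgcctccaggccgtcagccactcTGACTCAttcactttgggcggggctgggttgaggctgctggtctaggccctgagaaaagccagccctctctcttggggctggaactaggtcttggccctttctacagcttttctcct
TGANTCA was found in the promoters of 3 of the 13 matched members, the 3 printed here, and in 7.71% of all 35116 promoters in the table. GGAATG was found in 2 of the 13, ITGA5 and ITGB1, and in 14.0% of all promoters. A member was counted if any of its starts had a match, whereas the percentages count each promoter separately. Since ITGA6, ITGAV, ITGB1, ITGB5 and LAMB3 have several starts, the member counts cannot be compared with these percentages. LAMB3 has 3 starts in the table, and the one shown is the one with a match. Other members called below, such as ITGA2, LAMA5 and LAMC1, had no TGANTCA match and are not printed. These are matches of letters, and no binding was measured. A link between the motifs and the changes was not tested.

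LM2 cells had transcripts of laminin-binding, fibronectin-binding and collagen-binding integrins. Group means ran from 19.6 to 90.5 FPKM for ITGA5, of the fibronectin receptor, and from 26.3 to 44.6 FPKM for ITGA2, of the collagen receptor. ITGB1, the common beta subunit, held most of the beta transcripts, with 84.4% of their summed FPKM in the EZH2 shRNA group, 84.5% in the ZRANB1 siRNA group, 82.7% in the scramble siRNA group and 80.1% in the scramble shRNA group. ITGA3, which pairs with ITGB1 as a laminin receptor, was the most abundant alpha subunit in each group and made up 51.7%, 52.2%, 61.1% and 54.7% of the alpha sum in the same order. Among laminin chains LAMB3 led in each group, with 49.5%, 47.5%, 38.5% and 46.6% of the sum of the reported laminin chains.

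Of the 30 members, 17 averaged 1 FPKM or more across all 12 values and were tested: 5 alpha subunits, 5 beta subunits and 7 laminin chains. Of the 13 below this minimum, 10 had each group mean under 0.3 FPKM: ITGA4, ITGA7, ITGA8, ITGA9, ITGA11, ITGB6, ITGB7, LAMA2, LAMB4 and LAMC3. ITGA8 was listed at 0 in all 12 values. The other low members were ITGA10, LAMA1 and ITGB8. ITGA10, a collagen receptor subunit of cartilage, had group means from 0.576 to 1.18 FPKM, highest with the scramble siRNA, and LAMA1, the alpha chain of laminin-111, from 0.566 to 0.854 FPKM. ITGB8, which pairs with ITGAV and binds latent TGF-beta, spanned the widest range of them. Its values were 1.15, 1.34 and 1.90 FPKM with the EZH2 shRNA, 0.794, 0.889 and 0.899 FPKM with the ZRANB1 siRNA, 0.121, 0.139 and 0.149 FPKM with the scramble siRNA, and 1.11, 1.18 and 1.30 FPKM with the scramble shRNA. The scramble siRNA values of ITGB8 lay apart from all others. Tested without the filter, ITGB8 was called higher with the ZRANB1 siRNA than with the scramble siRNA, 6.31-fold (log2 fold change 0.71, adjusted p = 8.74e-04), and lower with the scramble siRNA when set against the scramble shRNA (log2 difference -0.95, adjusted p = 2.53e-05). The difference of its effects was 0.55 (adjusted p = 0.0337). By the same test ITGA10 was lower with the ZRANB1 siRNA (log2 fold change -0.28, adjusted p = 0.0322) and higher between the scramble controls (0.37, adjusted p = 0.00243), where ITGA7 was higher (0.19, adjusted p = 0.0222) and ITGB6 lower (-0.16, adjusted p = 0.00246). With the EZH2 shRNA 0 of these low members were called by limma, and ITGB6 and ITGB7 had unadjusted p-values of 0.0325 and 0.0383. Without the filter, 6813 of all 18844 genes were called between the scramble controls and 2015 with the ZRANB1 siRNA. With the EZH2 shRNA 837 were called, and in the difference of effects 1307.

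**Figure D1:**
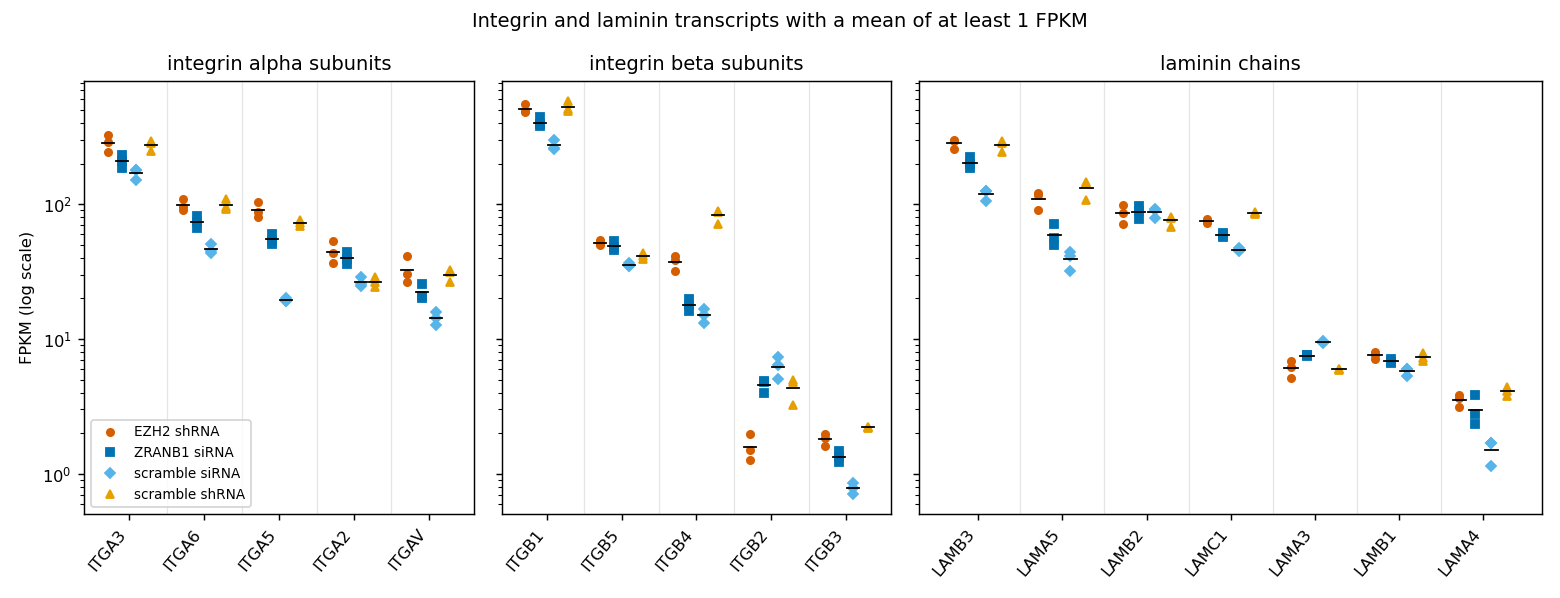
FPKM on a log scale for the 17 members with a mean of at least 1 FPKM; each point is 1 of the 3 values of a group and each black line a group mean. ITGB4 and ITGA5 show wide spreads between groups, whereas LAMB2 lies between 67.8 and 99.7 FPKM in all 12 values.

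The EZH2 shRNA was followed by changes in few members, and the 2 largest were falls of beta subunits. ITGB4, the beta subunit that joins laminin to keratin filaments, fell to 45.1% of its level, and ITGB2, the beta subunit of leukocyte integrins, fell to 36.5%. The collagen receptor subunit ITGA2 rose 1.67-fold, and ITGB5, which binds vitronectin with ITGAV, rose 1.26-fold. In all, 2 of the 17 members were called higher and 2 lower by limma with Benjamini-Hochberg adjustment over 11929 genes, where 3.39% of all tested genes were called higher and 3.03% lower. The median log2 fold change of the 17 was 0.017, and that of all genes was -0.014. Fold changes in the log2 scale are of FPKM + 1, which understates the change of low genes such as ITGB2 and ITGB3.

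Among the alpha subunits, ITGA2 had 37.0, 43.3 and 53.4 FPKM with the EZH2 shRNA, against 24.4, 26.7 and 28.7 FPKM with the scramble shRNA. All values with the EZH2 shRNA were above those of the control, and the log2 fold change was 0.71 (SE 0.127, adjusted p = 0.00789). In these bulk samples more RNA per cell and more cells with the transcript cannot be told apart. ITGA5, the fibronectin receptor subunit, stood at 80.1, 87.2 and 104 FPKM against 69.4, 73.0 and 76.8 FPKM. Its groups did not overlap, but the log2 fold change of 0.30 was not called (95% interval 0.08 to 0.51, adjusted p = 0.103). ITGA3 averaged 286 ± 40.1 and 277 ± 24.3 FPKM, ITGA6 98.9 ± 9.26 and 99.2 ± 8.62 FPKM, and ITGAV 32.7 ± 7.65 and 30.1 ± 3.33 FPKM in EZH2 shRNA and scramble shRNA cells (SD, n = 3 each). These 3 had overlapping groups and adjusted p-values from 0.787 to 0.992 by limma; the widest interval of a log2 fold change, that of ITGAV, ran from -0.24 to 0.44.

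Beta subunits moved in both directions. ITGB4 had 32.2, 38.7 and 41.3 FPKM with the EZH2 shRNA, against 71.6, 88.3 and 88.6 FPKM with the scramble shRNA. The gap between the groups was wider than the range within either, and the log2 fold change was -1.13 (SE 0.125, adjusted p = 4.76e-04). ITGB2 had 1.28, 1.51 and 1.98 FPKM against 3.22, 4.82 and 4.98 FPKM, again with no overlap, and a log2 fold change of -1.04 (SE 0.162, adjusted p = 0.00374). The leukocyte markers PTPRC and CD3E and the alpha partners ITGAL, ITGAM and ITGAX were below 0.05 FPKM in each group, so 5 of the 9 leukocyte markers listed here were near 0. The summed level of the 9, in which ITGB2 and the broadly expressed CD68 are included, was 40.5 FPKM with the EZH2 shRNA and 43.0 FPKM with the scramble shRNA. CD68 made up most of it, at 35.6 and 34.4 FPKM. CD14 stood at 2.87 ± 0.877 and 3.90 ± 0.680 FPKM and was not called (adjusted p = 0.272 by limma). LYZ stood at 0.404 and 0.326 FPKM. The antisense transcript ITGB2-AS1 stood at 0.469 ± 0.109 FPKM and 1.25 ± 0.273 FPKM in the same groups, and since the strand setting of the counting is not given in the sources used here, it and ITGB2 cannot be told apart. ITGB5 had 49.8, 51.6 and 54.3 FPKM with the EZH2 shRNA, against 39.2, 41.1 and 43.3 FPKM with the scramble shRNA. Its groups did not overlap, with a log2 fold change of 0.33 (SE 0.072, adjusted p = 0.0225). ITGB1 averaged 510.3 ± 40.3 and 529.9 ± 51.0 FPKM, with an adjusted p of 0.812, and ITGB3, the vitronectin receptor subunit, 1.80 ± 0.176 and 2.21 ± 0.0183 FPKM, with groups that did not overlap and an adjusted p of 0.249 by limma.

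Of the 7 laminin chains, 0 were called with the EZH2 shRNA by limma; at an unadjusted p below 0.05 there was 1, LAMC1. LAMC1, the most common gamma chain, had 72.7, 76.1 and 78.4 FPKM with the EZH2 shRNA, against 84.9, 85.5 and 88.3 FPKM with the scramble shRNA; its groups did not overlap, with a log2 fold change of -0.19 that was not called (adjusted p = 0.0808). Without the filter on low values it was called, at an adjusted p of 0.0398. The remaining chains were LAMA3, LAMA4, LAMA5, LAMB1, LAMB2 and LAMB3. Their log2 fold changes ran from -0.27 for LAMA5 to 0.16 for LAMB2, with adjusted p-values from 0.415 to 0.943 by limma. LAMB3 averaged 284 ± 24.7 FPKM with the EZH2 shRNA and 274 ± 27.3 FPKM with the scramble shRNA, and LAMA5 109.7 ± 16.5 and 133 ± 21.5 FPKM (SD, n = 3 each). Fitted with the 6 values of these groups alone, limma no longer called ITGA2 (adjusted p = 0.0744) or ITGB5 (0.0903); ITGB4 and ITGB2 stayed called. Dropping 1 of the values in random order also ended the call of ITGB5 in 4 of 6 draws, with adjusted p-values up to 0.0874.

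The libraries labelled ZRANB1 siRNA stood above the scramble siRNA control in most members. ITGA5 was 2.80-fold and LAMA4 1.97-fold higher, ITGB3, LAMB3, ITGA6, ITGAV, ITGA2, LAMA5 and ITGB1 were 1.47-fold to 1.71-fold higher, and ITGB5 and LAMC1 1.39-fold and 1.29-fold. In the opposite direction, LAMA3 fell to 79.3% of its control level. Of the 17 members, 11 were called higher and 1 lower by limma with Benjamini-Hochberg adjustment, against 10.1% of all tested genes called higher and 6.5% called lower. Leaving out 1 value of either group took the number of genes called lower to between 454 and 492, from 775 with all values. The members' median log2 fold change was 0.46, and that of all genes -0.017. The summed level of leukocyte markers was 47.5 FPKM in the ZRANB1 siRNA group and 47.0 FPKM with the scramble siRNA, that of endothelial and platelet markers 1.74 and 0.946 FPKM, and that of fibroblast and muscle markers, mostly COL1A1, 19.6 and 10.6 FPKM. Their part in these results was not tested. The leukocyte sum was mostly CD68, at 41.7 and 40.2 FPKM. CD14 was called higher in the ZRANB1 siRNA libraries, at 0.867 against 0.243 FPKM (adjusted p = 0.0401 by limma). ITGB2 was lower and not called (4.56 against 6.24 FPKM), and LYZ stood at 0.335 and 0.307 FPKM. PTPRC, CD3E, ITGAL, ITGAM and ITGAX were below 0.05 FPKM in both groups. Of the 8 endothelial and platelet markers, CDH5, TEK and PF4 were below 0.05 FPKM in both groups. PECAM1 (0.678 against 0.316 FPKM), KDR (0.866 against 0.477 FPKM) and ITGA2B (0.121 against 0.0312 FPKM) were higher in the ZRANB1 siRNA means. VWF was also higher (0.0526 against 0.0284 FPKM), and GP9 was lower (0 against 0.0930 FPKM). Of the 8 fibroblast and muscle markers, COL1A2 was below 0.05 FPKM in both groups. DCN (0.113 FPKM), LUM (0.117 FPKM) and COL3A1 (0.0537 FPKM) were listed at 0 with the scramble siRNA. DES (0.0993 against 0.210 FPKM) and PDGFRB (0.628 against 0.686 FPKM) were lower in the ZRANB1 siRNA means, and ACTA2 stood at 1.55 FPKM in both groups.

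ITGA5 had 50.7, 53.7 and 60.3 FPKM in the ZRANB1 siRNA group, against 19.2, 19.3 and 20.3 FPKM with the scramble siRNA. The gap between the groups was wider than the range within either group, and the log2 fold change was 1.44 (SE 0.098, adjusted p = 1.63e-06). ITGA6, the laminin receptor subunit, had 66.4, 74.1 and 82.0 FPKM against 43.3, 45.0 and 50.7 FPKM, without overlap and with a log2 fold change of 0.66 (SE 0.103, adjusted p = 0.00104). ITGAV had 20.1, 21.0 and 25.5 FPKM against 12.7, 14.3 and 15.9 FPKM, with a log2 fold change of 0.60 (SE 0.155, adjusted p = 0.0217). In ITGA2 the values were 36.1, 39.2 and 44.4 FPKM against 24.8, 25.4 and 28.8 FPKM, with a log2 fold change of 0.58 (SE 0.127, adjusted p = 0.00917). Both of these subunits also had groups without overlap. ITGA3 averaged 210.0 ± 23.9 FPKM in the ZRANB1 siRNA group and 169.9 ± 16.2 FPKM with the scramble siRNA. Its groups did not overlap, yet its log2 fold change of 0.30 was not called (95% interval 0.04 to 0.57, adjusted p = 0.119).

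Of the 5 beta subunits, 3 were higher. ITGB1 had 379, 392 and 443 FPKM in the ZRANB1 siRNA group, against 259, 264 and 302 FPKM with the scramble siRNA. The groups lay apart, and the log2 fold change was 0.56 (SE 0.095, adjusted p = 0.00204). ITGB5 had 45.8, 48.0 and 53.1 FPKM against 34.6, 34.7 and 36.7 FPKM, a log2 fold change of 0.46 (SE 0.072, adjusted p = 0.00122), and ITGB3 had 1.21, 1.33 and 1.47 FPKM against 0.705, 0.785 and 0.854 FPKM, one of 0.39 (SE 0.092, adjusted p = 0.0132). Both had groups without overlap. ITGB4 averaged 18.0 ± 1.83 FPKM in the ZRANB1 siRNA group and 15.0 ± 1.83 FPKM with the scramble siRNA. Its groups overlapped, and limma made no call at a log2 fold change of 0.25 (adjusted p = 0.217, 95% interval -0.03 to 0.52). ITGB2 averaged 4.56 ± 0.503 and 6.24 ± 1.14 FPKM, and its log2 fold change of -0.37 was not called (adjusted p = 0.147); these groups did not overlap.

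Laminin chains were higher in 4 of 7 genes and lower in 1. LAMB3 had 185, 198 and 225 FPKM in the ZRANB1 siRNA group, against 107, 125 and 126 FPKM with the scramble siRNA, without overlap and with a log2 fold change of 0.76 (SE 0.106, adjusted p = 4.73e-04). LAMA3, an alpha chain that assembles with LAMB3, had 7.45, 7.56 and 7.60 FPKM against 9.41, 9.52 and 9.60 FPKM. Here all values of the ZRANB1 siRNA group were below those of the control, and the log2 fold change was -0.30 (SE 0.084, adjusted p = 0.0312).

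The chains of other laminins followed the direction of LAMB3 or were not called. LAMC1 had 57.3, 59.4 and 60.8 FPKM in the ZRANB1 siRNA group, against 45.3, 45.6 and 47.0 FPKM with the scramble siRNA, with a log2 fold change of 0.36 (SE 0.057, adjusted p = 0.00131). LAMA5, the alpha chain of laminin-511 and laminin-521, had 49.8, 56.6 and 71.4 FPKM against 32.1, 41.4 and 44.2 FPKM, and LAMA4, the alpha chain of laminin-411, had 2.32, 2.76 and 3.81 FPKM against 1.14, 1.68 and 1.70 FPKM. The groups of these 3 chains did not overlap; the log2 fold change was 0.58 (SE 0.174, adjusted p = 0.0418) for LAMA5 and 0.65 (SE 0.142, adjusted p = 0.00893) for LAMA4. LAMB1 averaged 6.81 ± 0.251 and 5.79 ± 0.399 FPKM, with an adjusted p of 0.0919 by limma. LAMB2 averaged 87.7 ± 9.44 and 87.1 ± 7.34 FPKM; the 95% interval of its log2 fold change ran from -0.27 to 0.29. The calls of LAMA3 and LAMA5 were lost without the filter on low values, at adjusted p-values of 0.0519 and 0.0694, and that of LAMA5 also with the 6 values of these groups alone (0.0611). Dropping 1 of the values in random order ended the call of LAMA3 in all 6 draws (adjusted p from 0.0765 to 0.0880), of LAMA5 in 4 (up to 0.151), of ITGAV in 3 (up to 0.0851) and of ITGB3 in 2 (up to 0.0555).

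**Figure D2:**
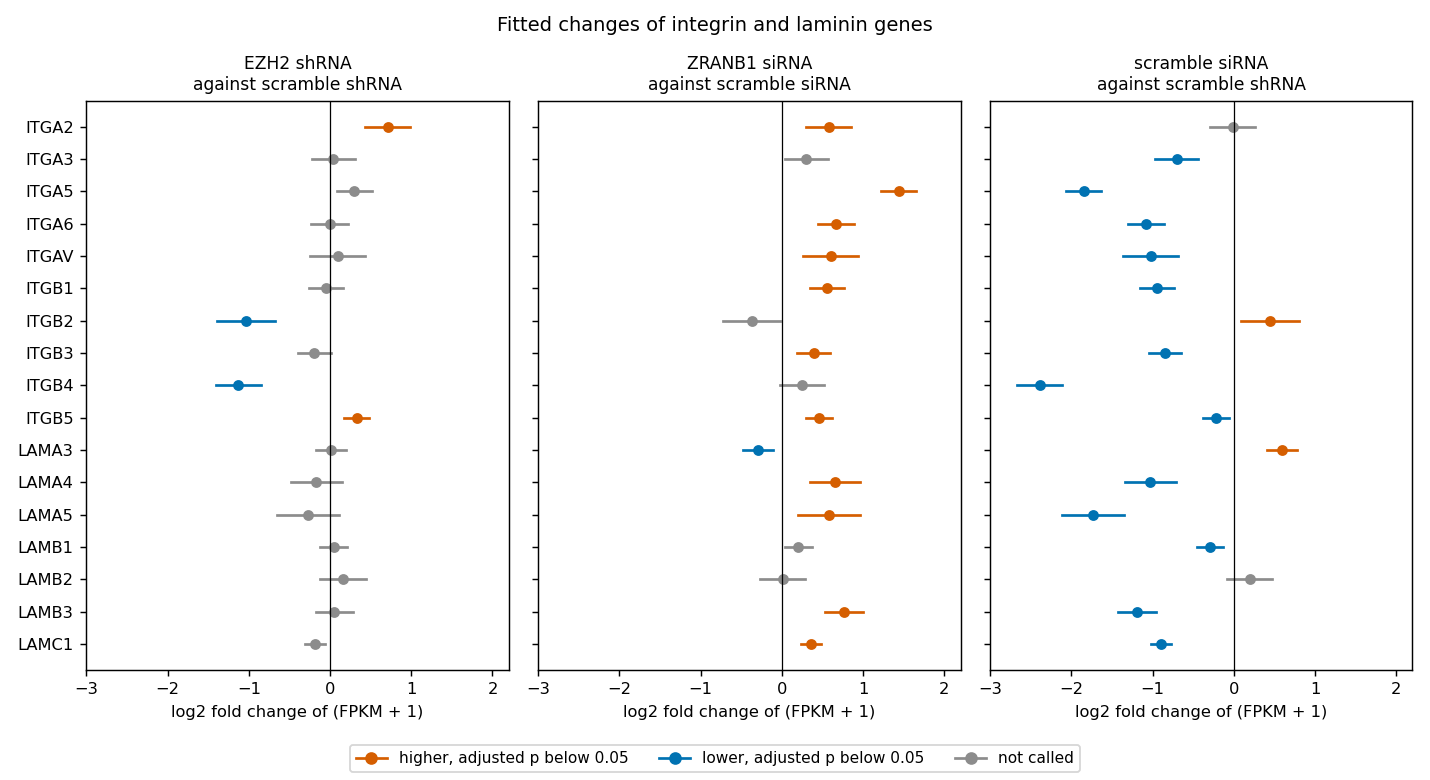
Log2 fold changes of FPKM + 1 with 95% intervals from limma for the 17 tested members, in the EZH2 shRNA and ZRANB1 siRNA comparisons and between the scramble controls; colours mark the direction of calls at an adjusted p below 0.05. Calls with the EZH2 shRNA number 2 higher and 2 lower, and in the ZRANB1 siRNA libraries 11 higher and 1 lower; both scramble controls differ in 15 members, 13 lower and 2 higher with the scramble siRNA.

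Both scramble controls, which differ in how the RNA was delivered, stood far apart in these genes, and the ZRANB1 siRNA comparison shares its control with this one. ITGB4 was at 18.1% of the scramble shRNA level in scramble siRNA cells, ITGA5 at 26.8% and LAMA5 at 29.6%. Of the 17 members, 13 were called lower with the scramble siRNA and 2 higher by limma, against 25.1% of all tested genes called lower and 25.5% called higher. Summed fibroblast and muscle markers came to 10.6 FPKM in scramble siRNA cells and 26.7 FPKM in scramble shRNA cells, mostly COL1A1 (8.14 and 24.6 FPKM). Endothelial and platelet markers came to 0.946 and 2.22 FPKM, and leukocyte markers to 47.0 and 43.0 FPKM. Of 3 tested leukocyte markers, CD14 was called lower (0.243 against 3.90 FPKM, adjusted p = 3.19e-06 by limma). CD68 and ITGB2 were called higher. The part of these markers was not tested. The median log2 difference of the members was -0.89, and that of all genes was 0.011. How much of this is delivery, culture or batch cannot be told apart from the labels.

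The log2 difference was -2.39 for ITGB4 (SE 0.125, adjusted p = 4.61e-08), -1.85 for ITGA5 (SE 0.098, adjusted p = 5.06e-08) and -1.73 for LAMA5 (SE 0.174, adjusted p = 8.79e-06). LAMB3, ITGA6, LAMA4, ITGAV, ITGB1, LAMC1, ITGB3 and ITGA3 were lower by log2 differences between -1.19 and -0.70, LAMB1 by -0.29 and ITGB5 by -0.22. The 2 members called higher were LAMA3, at 9.51 ± 0.0920 FPKM with the scramble siRNA and 5.95 ± 0.0524 FPKM with the scramble shRNA (log2 difference 0.60, adjusted p = 1.19e-04), and ITGB2, at 6.24 ± 1.14 and 4.34 ± 0.973 FPKM (0.44, adjusted p = 0.0389). The call of ITGB2 was lost without the filter on low values (adjusted p = 0.0659), with the 6 values of both controls alone (0.0774) and when 1 value was left out in 3 of 6 draws (up to 0.157); that of ITGB5 was lost in 4 of 6 draws (up to 0.0956). ITGA2 was at 26.3 ± 2.11 FPKM with the scramble siRNA and 26.6 ± 2.14 FPKM with the scramble shRNA (SD, n = 3 each), with a 95% interval of its log2 difference from -0.29 to 0.26, and LAMB2 at 87.1 ± 7.34 and 76.1 ± 7.20 FPKM was not called (adjusted p = 0.223).

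Whether a member responded differently to the EZH2 shRNA and the ZRANB1 siRNA was tested as the difference of their effects, which use no sample in common. Effects were compared with their sign kept. Of the 17, 8 had a larger log2 effect in the ZRANB1 siRNA comparison than in the EZH2 shRNA comparison and 0 a smaller one, against 6.91% and 3.58% of all tested genes by limma with Benjamini-Hochberg adjustment. At an unadjusted p below 0.05 the number with a smaller effect was 1, LAMA3. At that threshold ITGAV, ITGB2 and LAMA5 also had a larger effect (unadjusted p = 0.0421, 0.0141 and 0.00527 by limma). The difference was 1.38 for ITGB4 (SE 0.177, adjusted p = 4.39e-04), 1.14 for ITGA5 (SE 0.139, adjusted p = 2.77e-04) and 0.82 for LAMA4 (SE 0.201, adjusted p = 0.0235). For LAMB3, ITGA6, ITGB1, ITGB3 and LAMC1 it lay between 0.54 and 0.71. In ITGB4 the ZRANB1 siRNA effect of 0.25 was not called, and the EZH2 shRNA effect was -1.13. The part of the gap between the scramble controls in these differences was not tested. ITGA2 and ITGB5 were called higher in both comparisons, and their differences of -0.13 (95% interval -0.52 to 0.26) and 0.13 (95% interval -0.09 to 0.36) were not called. The call of LAMA4 was lost when 1 value was left out after a random order in 4 of 12 draws, with adjusted p-values up to 0.0583.

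LAMA3 and LAMB3 were not in a fixed ratio across groups. LAMB3 was at 46.8 times the mean FPKM of LAMA3 with the EZH2 shRNA, at 26.9 times with the ZRANB1 siRNA, at 12.5 times in scramble siRNA cells and at 46.0 times with the scramble shRNA. Since a value could not be traced to its library, these are ratios of group means without an error.

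Integrin α6 transcripts had both of their beta partners. ITGB4 stood at 0.378 times the mean FPKM of ITGA6 with the EZH2 shRNA, at 0.242 times with the ZRANB1 siRNA, at 0.323 times with the scramble siRNA and at 0.835 times with the scramble shRNA. ITGB1 was above ITGA6 by 5.16, 5.45, 5.93 and 5.34 times in the same order. With the EZH2 shRNA the fall of ITGB4 thus stood beside ITGA6 at 98.9 ± 9.26 FPKM, against 99.2 ± 8.62 FPKM with the scramble shRNA (SD, n = 3 each). For laminin-511 and laminin-521, LAMB2 exceeded LAMB1 by 11.3, 12.9, 15.0 and 10.4 times. Among αV partners ITGB5 exceeded ITGB3 by 28.8, 36.6, 45.2 and 18.7 times.

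**Figure D3:**
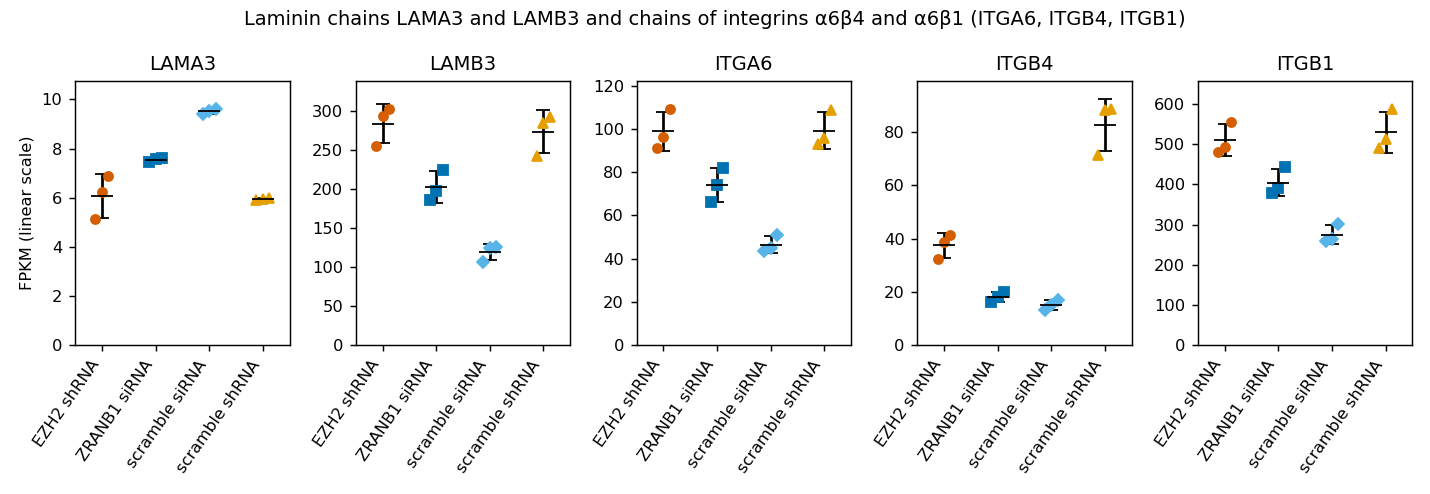
FPKM on linear axes that start at 0 for the laminin chains LAMA3 and LAMB3 and for ITGA6 with its beta partners; points are the 3 values of a group from low to high, and lines with bars are the mean and SD. LAMA3 is highest with the scramble siRNA, where LAMB3 is lowest, and ITGB4 is highest with the scramble shRNA.

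Other genes of matrix adhesion were taken from lists of known partners, ligands and adaptors. Of all tested genes, 10.1% were called higher and 6.5% lower in the ZRANB1 siRNA libraries, and 3.39% and 3.03% with the EZH2 shRNA. With the scramble siRNA against the scramble shRNA, 25.5% were called higher and 25.1% lower. Basement membrane genes other than laminins had 8 of 11 tested genes higher and 1 lower in the ZRANB1 siRNA libraries, with a median log2 fold change of 0.67, and 1 higher and 1 lower with the EZH2 shRNA. In the scramble siRNA control of that comparison 8 of the 11 were lower than with the scramble shRNA and 2 higher, with a median log2 difference of -0.98. COL4A5, a type IV collagen chain, was higher in both: 9.53 ± 0.289 FPKM with the EZH2 shRNA and 5.56 ± 0.363 FPKM in its control, and 5.41 ± 0.119 FPKM with the ZRANB1 siRNA and 3.11 ± 0.181 FPKM with the scramble siRNA. SPARC, a collagen-binding matrix protein, fell with the EZH2 shRNA, by 0.30 on the log2 scale (adjusted p = 0.0274), and was higher by 0.71 in the ZRANB1 siRNA libraries (adjusted p = 3.00e-05 by limma). TINAGL1, a matrix protein that binds integrins, averaged 61.5 ± 7.29 FPKM with the ZRANB1 siRNA and 27.0 ± 3.11 FPKM with the scramble siRNA. Its mean in scramble shRNA cells was 126 ± 14.6 FPKM, and that of SPARC was 116 ± 5.92 FPKM.

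Integrin ligands other than laminins and collagens had 7 of 13 tested genes higher and 0 lower in the ZRANB1 siRNA libraries, with a median log2 fold change of 0.81, and 1 higher and 3 lower with the EZH2 shRNA. Between the scramble controls 9 of the 13 were lower with the scramble siRNA and 2 higher, with a median log2 difference of -0.70. ICAM1, the ligand of ITGB2 integrins, was at 33.5 ± 2.36 FPKM with the ZRANB1 siRNA and 5.03 ± 0.730 FPKM in its control, and at 69.2 ± 2.97 FPKM with the EZH2 shRNA and 39.1 ± 1.91 FPKM with the scramble shRNA. TGFBI, a matrix protein bound by several integrins, was at 88.3 ± 6.51 FPKM with the ZRANB1 siRNA and 24.8 ± 1.09 FPKM with the scramble siRNA, and TNC (tenascin-C) at 15.1 ± 0.185 and 2.72 ± 0.197 FPKM. The 3 ligands lower with the EZH2 shRNA were NOV, CYR61 and the fibronectin gene FN1, named after their values were seen, with log2 fold changes of -0.56, -0.22 and -0.25.

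Calls among receptors and partners on the cell surface went in both directions. Of 9 tested laminin receptors that are not integrins, 1 was higher and 2 lower in the ZRANB1 siRNA libraries. The share higher was near that of all genes, and the number lower is too small to set against it. With the EZH2 shRNA 0 were called either way. Between the scramble controls 5 were higher and 3 lower with the scramble siRNA. SDC4, a heparan sulfate proteoglycan that acts beside α5β1, averaged 154 ± 8.97 FPKM with the ZRANB1 siRNA and 53.6 ± 1.07 FPKM with the scramble siRNA. BCAM, a receptor of LAMA5, was lower, at 11.8 ± 1.79 and 19.6 ± 2.71 FPKM, and so was the dystroglycan gene DAG1, at 50.7 ± 2.92 and 61.2 ± 1.60 FPKM. In scramble shRNA cells SDC4 averaged 274 ± 21.7 FPKM, BCAM 5.23 ± 0.803 FPKM and DAG1 42.5 ± 1.09 FPKM. Of 9 hemidesmosome and tetraspanin partners, 3 were higher in the ZRANB1 siRNA libraries: CD82, which restrains integrin traffic and motility, at 92.4 ± 8.39 and 25.9 ± 3.17 FPKM, the hemidesmosome collagen COL17A1 at 1.64 ± 0.145 and 0.741 ± 0.00751 FPKM, and CD151, a tetraspanin bound to laminin-binding integrins, at 246 ± 24.9 and 185 ± 18.0 FPKM. None of the 9 was called with the EZH2 shRNA by limma, at adjusted p-values of 0.250 for CD82, 0.663 for COL17A1 and 0.825 for CD151. Between the scramble controls 1 of the 9 was higher and 4 lower with the scramble siRNA. With the scramble shRNA, CD82 averaged 190 ± 11.6 FPKM, COL17A1 2.82 ± 0.394 FPKM and CD151 299 ± 28.5 FPKM.

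Integrin activators and adhesion adaptors had 7 of 33 tested genes higher and 3 lower in the ZRANB1 siRNA libraries, with a median log2 fold change of 0.014, and 1 higher and 0 lower with the EZH2 shRNA. The share lower with the ZRANB1 siRNA and the share higher with the EZH2 shRNA were near those of all genes, and between the scramble controls 7 were higher and 12 lower with the scramble siRNA. The adaptor LPXN (leupaxin) averaged 20.8 ± 1.55 FPKM with the ZRANB1 siRNA and 11.7 ± 0.903 FPKM with the scramble siRNA, the kinase PTK2B 1.78 ± 0.147 and 0.935 ± 0.233 FPKM, and the integrin activator FERMT1 (kindlin-1) 5.75 ± 0.261 and 4.34 ± 0.528 FPKM. In scramble shRNA cells LPXN averaged 19.7 ± 2.19 FPKM, PTK2B 4.39 ± 0.291 FPKM and FERMT1 4.95 ± 0.460 FPKM. The gene higher with the EZH2 shRNA was FLNC, a filamin, named after its value was seen (log2 fold change 0.50, adjusted p = 0.0340 by limma). Of 9 integrin inhibitors and traffic genes, 0 were called with the EZH2 shRNA or the ZRANB1 siRNA; at an unadjusted p below 0.05 there was 1 in each, ITGB1BP1 and NUMB. The smallest adjusted p was 0.121, for NUMB. Between the scramble controls 2 of these 9 were higher and 2 lower with the scramble siRNA. Among related symbols outside the rule, ITGAE was not called in either comparison. ITGBL1, an integrin beta-like secreted protein, was at 1.48 ± 0.0877 FPKM with the ZRANB1 siRNA and 3.34 ± 0.167 FPKM with the scramble siRNA (log2 fold change -0.81, adjusted p = 3.20e-04). With the scramble shRNA ITGBL1 averaged only 0.116 ± 0.0717 FPKM. Between the scramble controls it was called higher with the scramble siRNA (log2 difference 1.96, adjusted p = 5.77e-08 by limma).

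**Figure D4:**
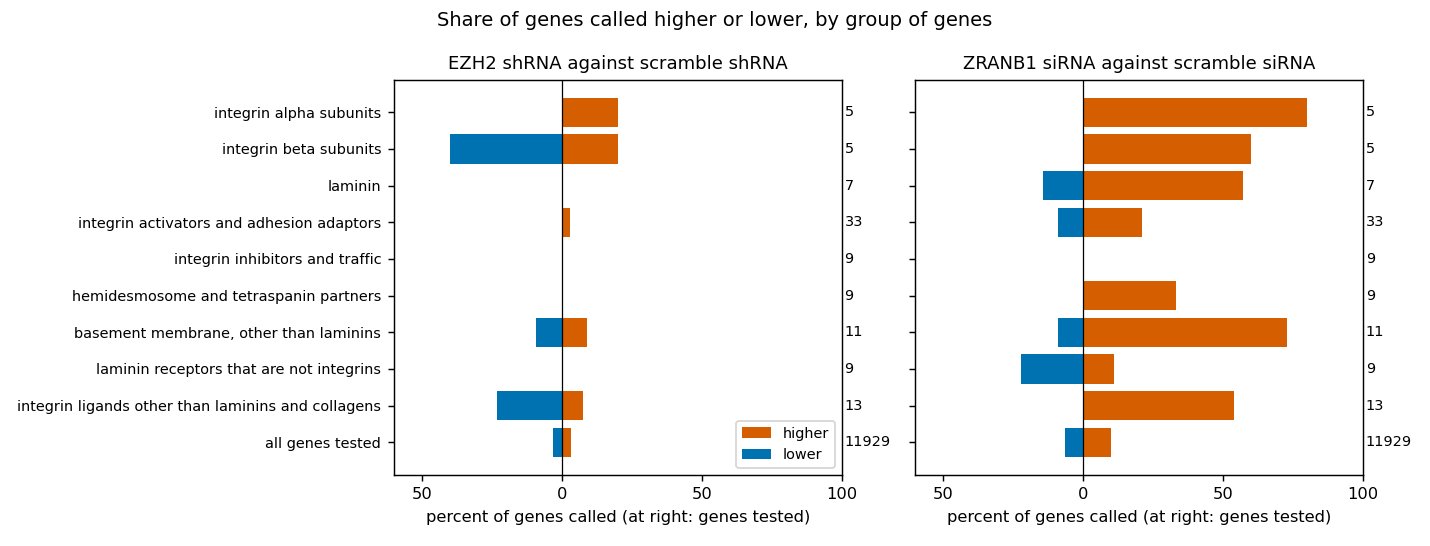
Percent of tested genes called higher (right of 0) or lower (left of 0) by limma at an adjusted p below 0.05, for the members and for lists of other adhesion genes, with all 11929 tested genes in the lowest bar. In the ZRANB1 siRNA libraries the bars for integrins, laminins, other basement membrane genes and integrin ligands reach furthest to the right of 0, with 8 of 11 basement membrane genes and 7 of 13 ligands called higher.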

How the data were processed

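The values are FPKM as the authors deposited them, in 1 table of 26006 rows. The submitters' processing notes name hg19, Cuffdiff (2.2.1), Cufflinks (2.2.1), TopHat2 (2.1.1) and SAMtools. Not given in the sources used here: options, annotation, strand setting and library scaling. These values are shares of a library, so abundant transcripts lower the values of others. In each group, all rows with 3 different values held them sorted as text (16.7% would by chance), so columns follow no library.

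The highest row of a repeated symbol was kept. The tests used limma 3.58.1 (R 4.3.3) on log2(FPKM + 1), fitting a mean for each of the 4 groups together, which left 8 residual degrees of freedom. The prior variance followed the intensity, and only the 11929 genes averaging 1 FPKM or more entered. Calls were made at a Benjamini-Hochberg adjusted p below 0.05 over these genes. An exact two-sided permutation test of 3 values against 3 cannot go below 0.1. Other settings were a pseudocount of 0.1, dropping the filter, raising it to 5 FPKM, fitting only the groups compared, no trend, summed rows, 1 scaling factor per group, and leaving out 1 value of a group after a seeded random order for each gene.

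A gene that the rule takes and a listed marker are not reported here, and member counts leave them out. The members and lists were chosen with earlier results of these data known. Text names every tested member, both targets and at most 3 genes per list, those with the smallest adjusted p-values; cell type markers and a few genes marked as named after their values were seen fall outside this.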

Additional observations from a re-analysis of the deposited data

Results flagged for a closer look

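In 8 members the effects of the EZH2 shRNA and the ZRANB1 siRNA differed by limma's test of the difference (ZRANB1 siRNA effect minus EZH2 shRNA effect, log2 of FPKM + 1, adjusted p below 0.05). The differences were 1.14 for ITGA5, 0.67 for ITGA6, 0.61 for ITGB1, 0.59 for ITGB3, 1.38 for ITGB4, 0.82 for LAMA4, 0.71 for LAMB3 and 0.54 for LAMC1. For ITGB4 the ZRANB1 siRNA effect was 0.25, which was not called, and the EZH2 shRNA effect was -1.13. All 8 were lower in the scramble siRNA group than in the scramble shRNA group, and the part of that gap in the differences was not tested.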

How the results depend on the processing

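No paired analysis was possible because the columns carry no replicate: the values of a group are sorted as text in each row. Member counts here cover the 17 members with a mean of at least 1 FPKM. Without the filter ITGA10, ITGA7, ITGB6 and ITGB8 among the low members were also called. Of all 18844 genes then tested, 2015 were called with the ZRANB1 siRNA and 6813 between the scramble controls. With the EZH2 shRNA, 503 of all genes were called at a minimum of 5 FPKM and 185 with the 6 values alone, where 0 members were called higher; at a minimum of 5 FPKM, which ITGB2 does not reach, 1 member was called lower. In the ZRANB1 siRNA libraries 0 of the 17 were called lower without the filter on low values. Between the scramble controls 1 of the 17 was called higher without the filter, at a minimum of 5 FPKM and with the 6 values alone. The causes were not tested. LAMA5 passed the test of the difference of effects at a pseudocount of 0.1 (adjusted p = 0.0439) and with 1 scaling factor per group (0.0482).

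Leaving out 1 value gave 407 to 562 genes called with the EZH2 shRNA, 454 to 492 called lower with the ZRANB1 siRNA where the value left out was of its groups (775 with all values), and 1 to 2 members higher with the EZH2 shRNA, 0 members lower with the ZRANB1 siRNA, 1 to 2 members higher between the scramble controls, and 0 to 1 members with a smaller effect in the difference. Log2 fold changes of uncalled members changed sign. With the EZH2 shRNA they ran from -0.058 to 0.15 for ITGA3, -0.078 to 0.064 for ITGA6, -0.080 to 0.23 for ITGAV, -0.12 to 0.023 for ITGB1, -0.064 to 0.12 for LAMA3 and -0.031 to 0.13 for LAMB3. They ran from -0.065 to 0.089 for LAMB2 with the ZRANB1 siRNA, and for ITGA2 from -0.077 to 0.040 between the controls and from -0.25 to 0.0048 in the difference.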
